A study of Mus musculus with 8 samples.

Results

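Trim72, the gene of MG53, and 5 genes of proteins with which MG53 has been reported to act were followed in RNA sequencing of mouse crypt organoids. The 6 genes were chosen by name, as Trim72, Insr, Irs1, Ptk2, Prkaa1 and Cavin1, and were found by their Ensembl identifiers. Of these 6 genes, 4 had a value among 13706 genes with a value in all, and Irs1 and Cavin1 had no entry in any sample. Of 22028 annotated protein-coding genes, 12165 had any row. Whether the rows of the others were never made or were left out cannot be told here. A gene without an entry is therefore not taken as a gene without RNA. The samples were organoids grown from the intestinal crypts of 4 wild-type (WT) and 4 MG53-TG samples. These genotypes are those of the sample labels and of a figure legend of the study for the bulk organoid data. Elsewhere the study's text names MG53;Lgr5 crypt organoids for a transcriptome. Whether the mice also carried the Lgr5 knock-in allele cannot be told here. MG53-TG mice overexpress MG53 in the whole body, and WT stands for their wild-type littermates. All 8 cultures were embedded in Matrigel and kept in IntestiCult medium, and no treatment was named for either genotype. Neither the promoter of the transgene nor the age of the animals is given in the sources used here. The labels do not tell whether the 4 samples of a genotype came from separate animals or separate cultures, so the p-values measure the spread between these samples, which may be technical.

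MG53 is a tripartite motif protein with a RING domain that acts as a ubiquitin ligase. It is known from skeletal muscle and heart, where it moves to sites of membrane injury and helps to seal them together with caveolar proteins such as cavin-1. In muscle it has also been reported to target the insulin receptor and its docking protein IRS1, to act on focal adhesion kinase (encoded by Ptk2) through the conjugating enzyme UBE2H, and to bind the catalytic AMPK subunit encoded by Prkaa1. These are effects on proteins, whereas the values here are levels of RNA.

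The deposited values are FPKM (fragments per kilobase of transcript, scaled by the authors to the mapped fragments), and each row is a feature of transcripts rather than a gene. Such a row, called an event, may be a start, an end or a skipped exon, with the summed FPKM of the transcripts that have this feature. The value of a gene was the sum of its start rows or of its end rows, whichever had the higher mean. The start rows of all genes summed to between 269837 and 273797 FPKM in the WT and between 269094 and 284330 FPKM in the MG53-TG samples. The files used here hold no read counts, so the depth is unknown and counting intervals could not be given. The epithelial markers on a fixed list were all listed (8 of 8). They summed to between 2220 and 2546 FPKM in the WT and between 1837 and 2318 FPKM in the MG53-TG samples. Of them, 5 were lower in MG53-TG and 1, Vil1, was higher (limma adjusted p at most 0.05), against 29.3% and 15.7% of all genes tested. Of 12 striated muscle markers, 5 had no entry (Acta1, Actc1, Myh6, Ttn and Myog), and the others summed to between 2.74 and 5.00 FPKM over all samples. Of these, Tnnt2 had no entry in the WT and was between 0.573 and 1.55 FPKM in the MG53-TG, whereas the mean of Mylpf was 3.87 FPKM in WT and 2.01 FPKM in MG53-TG samples (limma adjusted p = 0.0258). The summed level of 12 enterocyte markers was between 679 and 820 FPKM in the WT and between 8783 and 11554 FPKM in the MG53-TG samples. Of these, Fabp1 had the largest means, 256 FPKM in WT and 5814 FPKM in MG53-TG samples. That of 8 stem cell markers was between 382 and 550 FPKM in the WT and between 39.3 and 205 FPKM in the MG53-TG samples. The 7 goblet cell markers summed to between 413 and 456 FPKM in the WT and between 121 and 326 FPKM in the MG53-TG, and the 5 listed Paneth cell markers to between 1114 and 1505 and between 317 and 581 FPKM. Of those tested, 4 of 6 goblet and 4 of 5 Paneth markers were lower (limma adjusted p at most 0.05), against 29.3% of all genes tested. Tff3 had the largest goblet means, 316 and 170 FPKM. Zg16 went the other way, with means of 9.18 FPKM in WT and 33.7 FPKM in MG53-TG samples (limma adjusted p = 0.116). So did the Paneth marker Nupr1, with 84.7 and 106 FPKM (limma adjusted p = 0.350). Of 10 mesenchyme markers, 5 had no entry, and the collagens Col1a1, Col1a2 and Col3a1 were listed in MG53-TG samples 2 to 4 alone, at up to 2.07 FPKM. Dcn was listed in MG53-TG sample 2 alone, and Vim, listed in all 8 samples, had means of 2.41 FPKM in WT and 1.59 FPKM in MG53-TG samples (limma adjusted p = 0.125). Of 8 immune markers, 5 had no entry, and Cd68 alone was tested and was lower, with means of 6.14 FPKM in WT and 0.935 FPKM in MG53-TG samples (limma adjusted p = 5.19e-04). Of 6 endothelial markers, Vwf alone had a value, of at most 0.569 FPKM in any sample. In such bulk samples, fewer cells of a type and less RNA per cell cannot be told apart. The part of these cell type differences in the results below was not tested.

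Trim72 was listed in every MG53-TG sample and in no WT sample. The gene lies on the plus strand at chr7:128003949-128011033 (GRCm38, identifier ENSMUSG00000042828). In MG53-TG samples 1 to 4 it was at 16.4, 27.4, 31.9 and 36.5 FPKM, a mean of 28.1 ± 8.60 FPKM (SD, n = 4). The highest of these samples was above the lowest by more than the level of the lowest itself, so the MG53-TG samples differed among themselves. No fold change is given, since the gene had no entry in the WT. It reached the filter on low values through the MG53-TG samples alone, so no p is given. In the MG53-TG samples its mean level was above that of 84.0% of the 10707 genes tested, with 1717 genes above it. On the same scale, which is per length of transcript, the mean levels of the reported partners in these samples were 8.96 FPKM for Insr, 8.34 FPKM for Prkaa1 and 4.30 FPKM for Ptk2.

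Only 2 events were listed for Trim72, a transcription start and a transcription end, and no skipped exon, retained intron or alternative exon end. The end row was the terminal exon, chr7:128009887-128011033, which holds the last coding bases and the stop codon. It gave the gene value above. The start row was the first exon of the longer annotated transcript, chr7:128003949-128004069, which lies wholly in the 5′ untranslated region, before the start codon at 128004484. Its values were 10.3, 24.5 and 22.8 FPKM for MG53-TG samples 1, 3 and 4, and MG53-TG sample 2 had no start row. In the 3 samples with both rows, the start row was between 62.5% and 76.8% of the end row. The start of the shorter annotated transcript, at 128004378, had no row. Whether this RNA came from the transgene or from the endogenous gene cannot be told apart from these rows. The end row gives the boundary of the terminal exon, which was listed in all 4 MG53-TG samples, and the coding sequence at that boundary is shown for this reason. The exon before it comes from the annotation and is in no row. The sequence was read from the GENCODE annotation of GRCm38 on the plus strand, with the last 30 bases of the exon before in lower case and the first 60 bases of the terminal exon in capitals.

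Trim72 exon boundary: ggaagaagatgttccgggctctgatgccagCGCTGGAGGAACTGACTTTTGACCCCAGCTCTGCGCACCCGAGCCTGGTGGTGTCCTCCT

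**Figure D1:**
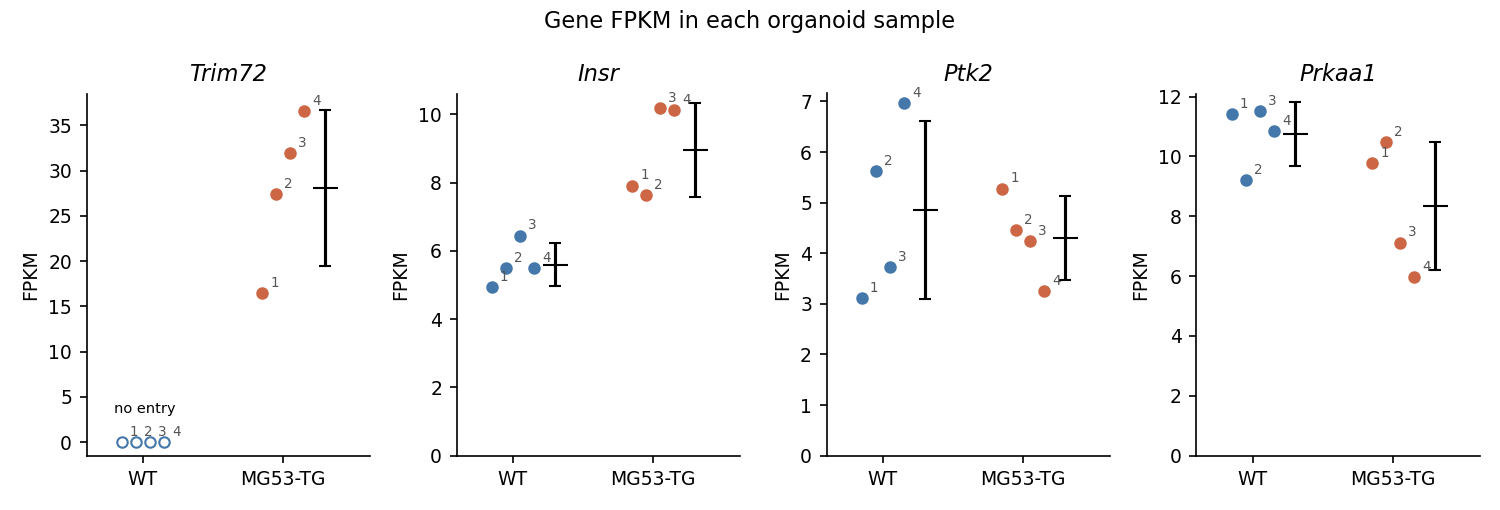
FPKM of Trim72, Insr, Ptk2 and Prkaa1 (y axes, linear, each with its own range) in each WT (blue) and MG53-TG (orange) sample. Points are samples with their numbers, open points at 0 stand for no entry, and horizontal ticks with bars are the mean ± SD of 4 samples. Trim72 is listed in MG53-TG alone, between 16.4 and 36.5 FPKM, the groups of Insr do not overlap, and those of Ptk2 and Prkaa1 do.

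Of all 10707 genes tested, 45.0% passed the threshold of 0.05 (limma, Benjamini-Hochberg adjusted p), of which the higher genes in MG53-TG made up 15.7% and the lower genes 29.3% of all tested, and the median log2 fold change was -0.17. Trim72, the overexpressed gene itself, entered this fit through the MG53-TG samples alone, so that its call was fixed by the design. Of the 3 other members with a value, 1 passed, Insr, which was higher by the gene value. The groups did not overlap for Insr, as was the case for 44.7% of all genes tested, and overlapped for Ptk2 and Prkaa1.

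Insr encodes the insulin receptor, a tyrosine kinase of the cell surface. It lies on the minus strand at chr8:3122061-3279617 (identifier ENSMUSG00000005534). By its end rows, the gene was at 4.93, 5.49, 6.45 and 5.49 FPKM in WT samples 1 to 4, and MG53-TG samples 1 to 4 had 7.91, 7.64, 10.2 and 10.1 FPKM. The lowest MG53-TG sample exceeded the highest WT sample. The mean was 5.59 ± 0.631 FPKM over the WT and 8.96 ± 1.38 FPKM over the MG53-TG samples (SD, n = 4 each), a ratio of 1.603. The log2 fold change of FPKM + 1 was 0.59 (standard error 0.13, limma adjusted p = 0.00688; two-sided exact permutation p = 0.0286, the smallest p that 4 against 4 samples allow).

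The start rows of Insr went the other way. The single listed start, chr8:3279029-3279551, was at 4.79, 5.40, 4.81 and 4.90 FPKM in WT samples 1 to 4. MG53-TG samples 1 to 4 were at 1.39, 2.44, 1.81 and 1.88 FPKM, so that every MG53-TG sample was below every WT sample. With start rows alone for all genes, the log2 fold change of Insr was -1.06 (limma adjusted p = 3.84e-04). The direction of Insr as a whole therefore depended on which rows were summed. Most of the end level came from the end of the longest annotated transcript, chr8:3150922-3156023, which averaged 5.01 ± 0.339 FPKM in WT and 8.71 ± 1.37 FPKM in MG53-TG samples (SD, n = 4 each). A further end inside the gene, chr8:3174795-3174888, was at 1.64 FPKM in WT sample 3 and at most 0.169 FPKM in each of the other samples. The third end, chr8:3211101-3211700, was between 0.0678 and 0.124 FPKM in all samples.

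The other events listed for Insr were the inclusion and the skipping of a 36-base exon at chr8:3181702-3181737. This is exon 11 in transcript order, and its length is a multiple of 3, so that it adds 12 codons. The insulin receptor is known in 2 isoforms, of which IR-B has the residues of this exon near the end of the alpha subunit and IR-A lacks them. IR-A is common in fetal and proliferating cells, and IR-B is known as the main form in liver, fat and muscle. Of the 5 annotated transcripts of the gene, 1 holds the exon, and the sequence was read from it. The exon is in capitals, with 30 bases of the exons on either side in lower case, 5′ to 3′ on the minus strand.

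Insr exon 11: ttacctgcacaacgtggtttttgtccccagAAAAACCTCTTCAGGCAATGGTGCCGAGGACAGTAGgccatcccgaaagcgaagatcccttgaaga

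Transcripts without the exon were at 4.72, 3.64, 4.70 and 4.80 FPKM in WT samples 1 to 4. In MG53-TG samples 1 to 4 they were at 1.29, 3.05, 1.70 and 0.0113 FPKM. Each MG53-TG sample was lower than each WT sample, and MG53-TG sample 4 had almost no skipping event. Transcripts with the exon were at 0.137, 1.76, 1.64 and 0.586 FPKM in WT samples 1 to 4. In MG53-TG samples 1 to 4 they were at 6.52, 4.46, 8.37 and 9.997 FPKM, again with no overlap between the groups. The skipping event was the larger one in all 4 WT samples and the inclusion event was the larger one in all 4 MG53-TG samples.

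Inclusion, the share of the exon's FPKM in the transcripts with it, was 2.82%, 32.5%, 25.8% and 10.9% in WT samples 1 to 4. It was 83.5%, 59.4%, 83.1% and 99.9% in MG53-TG samples 1 to 4. It averaged 18.0% ± 13.6 over the WT and 81.5% ± 16.7 over the MG53-TG samples (SD, n = 4 each), a difference of 63.5 percentage points. Over 1208 skipped exons tested together on an arcsine scale, this difference had an unadjusted p of 7.75e-04 and missed the threshold once adjusted (limma adjusted p = 0.0624). By itself it had the smallest p possible (two-sided exact permutation test, p = 0.0286). It was number 3 of the 1208 exons by the size of the difference and number 15 by p. Of these exons, 0.911% passed the threshold, and the groups did not overlap in 8.86%. Without MG53-TG sample 2, which had the lowest inclusion of its group, the adjusted p was 0.0390 (limma), and it was between 0.0715 and 0.262 under the other alternatives with a test.

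The start, end and exon rows of Insr were linked. In all 8 samples, the included and the skipped event summed to the 2 ends beyond the exon within 0.01 FPKM. In 3 WT and 2 MG53-TG samples, the start row equalled the skipping event plus the end at chr8:3211101-3211700 within 0.01 FPKM, so that no transcript with the exon had a listed start in these samples. In WT samples 1 and 3, the inclusion event equalled the inner end at chr8:3174795-3174888, where the annotated transcript with the exon stops. Among transcripts that ran to the end at chr8:3150922-3156023, inclusion was therefore 0% in WT samples 1 and 3, 31.4% in WT sample 2 and 9.27% in WT sample 4. In MG53-TG samples 1 to 4, it was 83.2%, 58.6%, 82.9% and 99.9%, which put the difference at 71.0 percentage points. This measure was added after seeing the data.

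**Figure D2:**
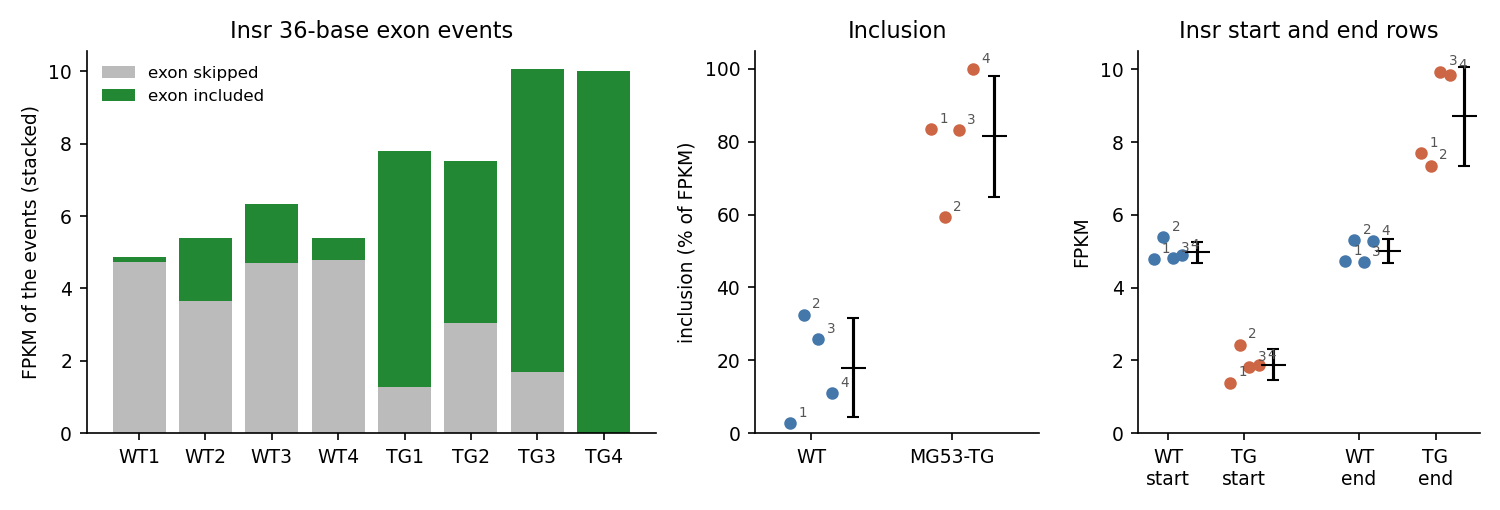
Events of Insr. The left panel stacks the FPKM of the events that skip (grey) and include (green) the 36-base exon in each sample (TG stands for MG53-TG), the middle panel gives the inclusion in percent, and the right panel gives the FPKM of the start row and of the end row of the longest annotated transcript, with samples as points and the mean ± SD of 4 samples as ticks with bars. Skipping is the larger event in the 4 WT samples and inclusion in the 4 MG53-TG samples, while the start row is lower and the end row higher in the MG53-TG.

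Proteins known to act on the splicing of this exon were looked up after its values had been seen, so they are given as a description. Mbnl2, of the muscleblind family, averaged 28.2 ± 5.53 FPKM in WT and 15.9 ± 1.78 FPKM in MG53-TG samples (SD, n = 4 each; log2 fold change -0.78). Its relative Mbnl1 was at 34.9 ± 10.2 and 32.3 ± 5.72 FPKM (log2 fold change -0.08). Srsf3, a serine and arginine-rich splicing factor, was between 87.9 and 107 FPKM in the WT and between 55.5 and 87.4 FPKM in the MG53-TG. Srsf1, of the same family, was between 61.6 and 113 FPKM in the WT and between 44.6 and 68.2 FPKM in the MG53-TG. Celf1 was between 36.2 and 40.3 FPKM in the WT and between 11.8 and 33.0 FPKM in the MG53-TG. Hnrnpa1, a nuclear RNA-binding protein, had the largest difference of these 7 genes, with means of 184 ± 77.5 and 76.9 ± 27.0 FPKM (SD, n = 4 each; log2 fold change -1.22). Hnrnpf, of the same class, was between 281 and 347 FPKM in the WT and between 170 and 248 FPKM in the MG53-TG. Of the 7 genes, Hnrnpa1, Hnrnpf, Mbnl2 and Srsf3 passed the threshold in the fit over all genes (limma adjusted p between 0.00355 and 0.0256), all 4 as lower, against 45.0% of all genes that passed and 29.3% that were lower. Their part in the use of the exon was not tested.

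Around Insr, a list of 48 insulin and IGF signalling genes was read from the same fit. Of its 39 genes tested, 1 was higher, which was Insr itself by its end rows, 15 were lower and 23 did not pass. Together 41.0% passed, against 45.0% of all genes, and the median log2 fold change was -0.31, against -0.17. Without WT sample 1, 10 genes of the list passed instead of 16, and with end rows alone 9 did. The insulin receptor's relative Igf1r, the receptor of insulin-like growth factor 1, was at 1.49, 1.41, 1.44 and 1.52 FPKM in WT samples 1 to 4 and had no entry in any MG53-TG sample. Igf1r and the adaptor Grb10, both among the 15 lower genes, reached the filter of 0.5 FPKM through the WT alone, so their calls had to be falls and no p is given. Inppl1, a lipid phosphatase that opposes the signal, had a mean of 17.5 ± 1.73 FPKM in WT and of 6.37 ± 1.29 FPKM in MG53-TG samples (SD, n = 4 each), which was a fall (limma adjusted p = 1.65e-04, log2 fold change -1.34). With end rows alone for all genes, the log2 fold change of Inppl1 was -0.36 (limma adjusted p = 0.424). Enpp1, an ectoenzyme known to bind the insulin receptor, fell from 3.06 ± 0.403 to 0.803 ± 0.133 FPKM (log2 fold change -1.17, limma adjusted p = 1.34e-04). The docking proteins Irs1 and Irs2 were among the 6 genes of the list with no entry, and they were not analysed here. Irs1 lies at chr1:82233101-82291416 and its annotated transcript has 2 exons.

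Ptk2 encodes focal adhesion kinase, which takes up signals from integrins at the sites where cells hold on to the matrix. It lies on the minus strand at chr15:73205102-73423280 (identifier ENSMUSG00000022607). Ptk2 was at 3.11, 5.62, 3.73 and 6.96 FPKM in WT samples 1 to 4. For MG53-TG samples 1 to 4 the values were 5.28, 4.45, 4.23 and 3.26 FPKM. The MG53-TG samples lay within the range of the WT. The means were 4.86 ± 1.76 and 4.30 ± 0.831 FPKM (SD, n = 4 each), and the log2 fold change of -0.11 (standard error 0.22) was within the spread between samples (limma adjusted p = 0.719; two-sided exact permutation p = 0.714). Its sign turned with either rescaling of the samples, to 0.05 under median-of-ratios scaling as well as under quantile normalization.

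Ptk2 had 47 listed events, of which 5 were starts and 1 an end. The main start, chr15:73423009-73423128, held between 91.0% and 98.5% of the start level in the WT and between 54.1% and 96.9% in the MG53-TG. MG53-TG sample 4 stood apart here. It had 1.33 FPKM, or 40.7% of its start level, at an inner start at chr15:73394648-73394699, which was at most 0.166 FPKM in the other samples. The same sample was the only one to list the inclusion of a 21-base exon at chr15:73275621-73275641, at 1.13 FPKM, against 1.58 FPKM of skipping. The inner start and the short exon thus appeared together in 1 sample of 4, and they were not compared between the groups.

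The 3 shortest exons with a skipping event of Ptk2 are shown because each was skipped by transcripts in all 8 samples, whereas their inclusion differed between samples or was not listed. They are known from the forms of focal adhesion kinase in the nervous system. Each exon is in capitals with 24 bases of its neighbours in lower case, 5′ to 3′ on the minus strand, from the GENCODE annotation of GRCm38. They lie at chr15:73211987-73211995 (9 bases), chr15:73275621-73275641 (21 bases) and chr15:73282218-73282235 (18 bases), and all 3 lengths are multiples of 3.
Ptk2 9-base exon: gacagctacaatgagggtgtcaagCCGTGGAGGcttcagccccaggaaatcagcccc
Ptk2 21-base exon: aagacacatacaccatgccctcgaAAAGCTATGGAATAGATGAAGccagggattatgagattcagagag
Ptk2 18-base exon: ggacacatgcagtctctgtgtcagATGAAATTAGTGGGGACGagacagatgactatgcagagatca

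The 18-base exon was skipped in all 8 samples, with no inclusion event in any of them and between 2.61 and 6.74 FPKM of skipping. The inclusion of the 9-base exon was listed in 2 WT samples, at 16.4% and 7.89%, and in 3 MG53-TG samples, at 7.75%, 13.6% and 26.1%. The ranges overlapped, and without an inclusion event in the other 3 samples the exon could not be entered in the fit. The single exon of Ptk2 that could be tested, 155 bases at chr15:73365041-73365195, had a mean inclusion of 24.2% ± 26.8 over the WT and 24.5% ± 25.8 over the MG53-TG samples (SD, n = 4 each; limma adjusted p = 0.998). Its inclusion ranged from 0.413% to 54.8% over the 8 samples, so that samples of 1 genotype differed more than the genotypes did.

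Of 44 focal adhesion genes on a fixed list, 40 were tested, of which 2 were higher, 17 were lower and 21 did not pass. Together 47.5% passed, against 45.0% of all genes, and the median log2 fold change was -0.42, against -0.17. The integrin subunits, which bind the matrix outside the cell, were lower in 6 and higher in 2 of the 8 tested. Of all genes tested, 29.3% were lower and 15.7% higher. Among the lower integrins, Itgb6 reached the filter through the WT alone. Itga2 fell from 13.9 ± 1.21 to 3.79 ± 0.779 FPKM (log2 fold change -1.65, limma adjusted p = 3.96e-05), and Itga6 fell from 48.1 ± 8.66 to 15.6 ± 2.70 FPKM (log2 fold change -1.56, limma adjusted p = 1.41e-04; SD, n = 4 each). Itgb5 rose by 0.92 on the log2 scale (limma adjusted p = 3.47e-04), with means of 2.34 ± 0.276 and 5.31 ± 0.461 FPKM (SD, n = 4 each). Itga3 rose from 10.9 ± 0.977 to 14.1 ± 0.801 FPKM (log2 fold change 0.35, limma adjusted p = 0.0196), but was at -0.09 on the log2 scale with start rows alone (limma adjusted p = 0.761), and at 0.31 without WT sample 2 (adjusted p = 0.0579). The kinase Ptk2b, the closest relative of Ptk2, was between 5.71 and 7.77 FPKM in the WT and between 7.05 and 9.35 FPKM in the MG53-TG (log2 fold change 0.25, limma adjusted p = 0.161). Ube2h, the ubiquitin-conjugating enzyme reported to work with MG53, was between 15.2 and 16.1 FPKM in the WT. In MG53-TG samples 1 to 4 it was at 8.91, 16.0, 10.05 and 9.42 FPKM, so that MG53-TG sample 2 lay among the WT (log2 fold change -0.50, limma adjusted p = 0.0390). Ube2h missed the threshold in each of 7 fits that left out another sample (adjusted p up to 0.0908) and passed without MG53-TG sample 2 (adjusted p = 0.00112).

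**Figure D3:**
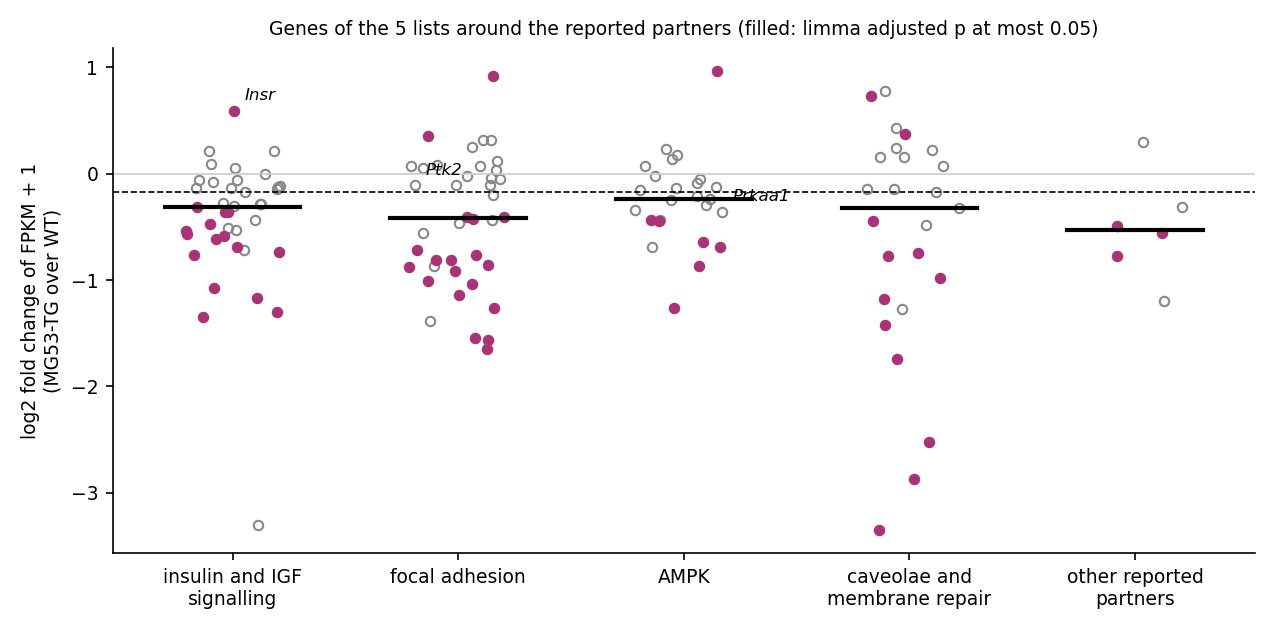
Log2 fold changes of FPKM + 1, MG53-TG over WT (y axis), of the tested genes of 5 lists (x axis, with random sideways spread). Each point is a gene, filled where the limma adjusted p was at most 0.05, black bars are list medians and the dashed line is the median of all genes tested, -0.17. The medians of the lists lie between -0.23 and -0.52, and few filled points lie above 0.

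Prkaa1 encodes a catalytic subunit of AMPK, the kinase that responds to low energy and consists of a catalytic alpha, a scaffold beta and a nucleotide-binding gamma subunit. It lies on the plus strand at chr15:5143861-5181899 (identifier ENSMUSG00000050697). Prkaa1 was at 11.4, 9.22, 11.5 and 10.9 FPKM in WT samples 1 to 4. MG53-TG samples 1 to 4 had 9.78, 10.5, 7.12 and 5.97 FPKM. MG53-TG samples 1 and 2 were within the range of the WT, and samples 3 and 4 were below it. The means were 10.8 ± 1.06 and 8.34 ± 2.14 FPKM (SD, n = 4 each). The log2 fold change of -0.36 (standard error 0.17) missed the threshold (limma adjusted p = 0.122; two-sided exact permutation p = 0.114). Without MG53-TG sample 2 it was -0.47 (limma adjusted p = 0.0495), and with median-of-ratios scaling it was -0.18 (limma adjusted p = 0.314). Its start and end rows had the same FPKM in every sample.

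A 94-base exon of Prkaa1, chr15:5164712-5164805, was included by most or all of the listed transcripts. Its skipping was listed in WT samples 1 and 3 and in MG53-TG samples 1 and 2, between 1.07 and 1.25 FPKM, with inclusion between 88.2% and 90.4%. The other 4 samples had no skipping event, so the exon was not compared between the groups. The exon is shown because it is the single alternative exon that was listed for this gene and its length is not a multiple of 3, so that skipping it shifts the reading frame. It is in capitals, with 24 bases of its neighbours in lower case, on the plus strand.

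Prkaa1 94-base exon: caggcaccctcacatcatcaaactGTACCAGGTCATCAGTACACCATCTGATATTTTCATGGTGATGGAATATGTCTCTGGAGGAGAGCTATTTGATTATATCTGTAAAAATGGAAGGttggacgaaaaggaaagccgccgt

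The other AMPK subunits did not move together. The second catalytic subunit, Prkaa2, averaged 9.46 ± 0.505 FPKM in WT and 9.14 ± 1.02 FPKM in MG53-TG samples (SD, n = 4 each; limma adjusted p = 0.726), with a log2 fold change of -0.05 as deposited and 0.13 with median-of-ratios scaling. The gamma subunit Prkag2 rose from 8.83 ± 0.506 to 18.3 ± 1.81 FPKM (SD, n = 4 each), and no sample of a group overlapped the other (log2 fold change 0.97, limma adjusted p = 1.49e-04). With end rows alone, the log2 fold change of Prkag2 was 0.42 (limma adjusted p = 0.207). The gamma subunit Prkag1 was between 15.6 and 21.3 FPKM in the WT and between 15.6 and 26.1 FPKM in the MG53-TG (limma adjusted p = 0.945), with a log2 fold change of -0.02 as deposited and 0.17 with median-of-ratios scaling. Of the beta subunits, Prkab1 fell by 0.44 on the log2 scale (limma adjusted p = 0.0312), and was at -0.26 with median-of-ratios scaling (limma adjusted p = 0.219). It missed the threshold in 5 of the 8 fits without 1 sample (adjusted p up to 0.0825). Prkab2 was at most 1.79 FPKM in every sample (limma adjusted p = 0.472).

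Of 29 AMPK pathway genes, 25 were tested, of which 1 was higher, 6 were lower and 18 did not pass. Together 28.0% passed, against 45.0% of all genes, and the median log2 fold change was -0.23. With end rows alone, 3 genes of the list passed instead of 7. Eef2k, a kinase that slows translation elongation, fell by 0.87 on the log2 scale (limma adjusted p = 1.40e-04), from between 7.46 and 8.001 FPKM to between 3.59 and 3.89 FPKM. Tbc1d1, a Rab GTPase-activating protein phosphorylated by AMPK, was between 8.73 and 9.93 FPKM in the WT with 4.74, 9.41, 4.57 and 4.03 FPKM as the values of MG53-TG samples 1 to 4. Tbc1d1 passed (log2 fold change -0.69, limma adjusted p = 0.0306), but missed it in 7 of the 8 fits without 1 sample (adjusted p up to 0.0778).

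Cavin1, which coats caveolae and is reported to anchor MG53 at injured membrane, lies on the minus strand at chr11:100956733-100970887 and had no entry in any sample. The other core genes of caveolae either had low values or, like Cavin1, had no entry, which is not a measured low level. Cav1, the main coat protein, was at 0.109, 0.228 and 0.102 FPKM in WT samples 1, 2 and 4 and at 0.0781 FPKM in MG53-TG sample 2, with no entry in the other samples. Cavin2 was listed at 0.0338 FPKM in MG53-TG sample 1 alone, and Cavin3 and the muscle forms Cav3 and Cavin4 had no entry. Cav2, the partner of caveolin-1, was at 1.33, 1.51, 1.48 and 0.875 FPKM in WT samples 1 to 4. MG53-TG samples 1 to 4 had 0.206, 0.164, 0.188 and 0.0869 FPKM, lower in each than in every WT sample. Since it reached the filter through the WT alone, no p is given.

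Of 34 genes of caveolae and membrane repair, 25 were tested, of which 2 were higher, 10 were lower and 13 did not pass. Together 48.0% passed, against 45.0% of all genes, and the median log2 fold change was -0.33. Dysf, the muscle repair protein reported to bind MG53, had no entry. Its relative Myof was at 4.40, 3.47, 11.3 and 8.56 FPKM in WT samples 1 to 4 and had no entry in the MG53-TG samples, so that it too is given without a p. Myof and Cav2 are both among the 10 lower genes. The annexin Anxa1, which binds membranes when calcium enters, fell from 24.8 ± 3.97 to 1.80 ± 1.36 FPKM (log2 fold change -3.35, limma adjusted p = 1.63e-04). Its binding partner S100a11 fell by 2.53 on the log2 scale (limma adjusted p = 2.87e-05), with means of 286 ± 46.2 and 49.7 ± 13.7 FPKM (SD, n = 4 each). Vamp8, a vesicle fusion protein, rose by 0.73 on the log2 scale (limma adjusted p = 1.21e-04), with means of 59.7 ± 2.32 and 99.8 ± 4.56 FPKM (SD, n = 4 each). Pdcd6, a calcium sensor of the repair machinery, rose by 0.37 on the log2 scale (limma adjusted p = 0.0127), from between 44.4 and 50.0 FPKM to between 55.6 and 68.0 FPKM.

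Another list held 9 genes whose products have been reported to bind or to act with MG53. Of these, 6 were tested, of which 3 were lower and 3 did not pass. Of all genes tested, 45.0% passed and 29.3% were lower. Besides Ube2h, these were Myh9, a non-muscle myosin heavy chain (log2 fold change -0.77, limma adjusted p = 0.00480), and Rela, a subunit of NF-κB (log2 fold change -0.55, limma adjusted p = 0.00579). Rela was between 13.5 and 16.0 FPKM in the WT and between 8.58 and 11.6 FPKM in the MG53-TG. The cell cycle gene Ccnd1 was between 45.7 and 54.3 FPKM in the WT, and MG53-TG samples 1 to 4 had 50.4, 39.9, 11.02 and 8.54 FPKM. MG53-TG samples 3 and 4 were far below samples 1 and 2, and the log2 fold change of -1.19 missed the threshold (limma adjusted p = 0.0866). It passed without MG53-TG sample 1 (adjusted p = 0.0220) and without sample 2 (adjusted p = 0.0459).

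The genes within 200 kb of Trim72 were read as well. Of 18 other protein-coding genes there, 12 had a value and 10 were tested, of which 1 was higher, 1 was lower and 8 did not pass, against 45.0% of all genes that passed. Vkorc1, which recycles vitamin K, 108 kb before the start of Trim72, was at 13.0, 12.8, 15.2 and 10.8 FPKM in WT samples 1 to 4. MG53-TG samples 1 to 4 had 43.3, 44.9, 41.7 and 47.1 FPKM, higher in each than in every WT sample (log2 fold change 1.70, limma adjusted p = 1.05e-05). Kat8, a histone acetyltransferase gene 78.1 kb before the start, fell by 0.41 on the log2 scale (limma adjusted p = 0.0185), and this was lost without WT sample 1 (adjusted p = 0.0543) and with either rescaling (adjusted p of 0.0997 under median-of-ratios scaling, 0.0831 under quantile normalization). The nearest gene with a value, Pycard, the adaptor of inflammasomes, 10.1 kb before the start, was between 16.7 and 19.7 FPKM in the WT and between 18.4 and 21.6 FPKM in the MG53-TG (limma adjusted p = 0.447). Bckdk, Prss36, Prss8, Stx4a, Zfp646 and Zfp668 did not pass as deposited (limma adjusted p between 0.0770 and 0.509). Under median-of-ratios scaling, Bckdk (log2 fold change 0.38, limma adjusted p = 0.00599), Stx4a (0.61, adjusted p = 0.0274) and Pycard (0.28, adjusted p = 0.0374) passed as higher besides Vkorc1, and no gene named here passed as lower. Bckdk and Stx4a also passed under quantile normalization (adjusted p of 0.00878 and 0.0316). Without MG53-TG sample 2, Prss36 passed as higher (adjusted p = 0.00963) and Zfp668 as lower (adjusted p = 0.0270). Stx4a also passed as higher with 1 sample left out (limma adjusted p down to 0.0157). Over all the alternatives, Zfp668 passed in 2, with a lowest limma adjusted p of 0.0209.

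**Figure D4:**
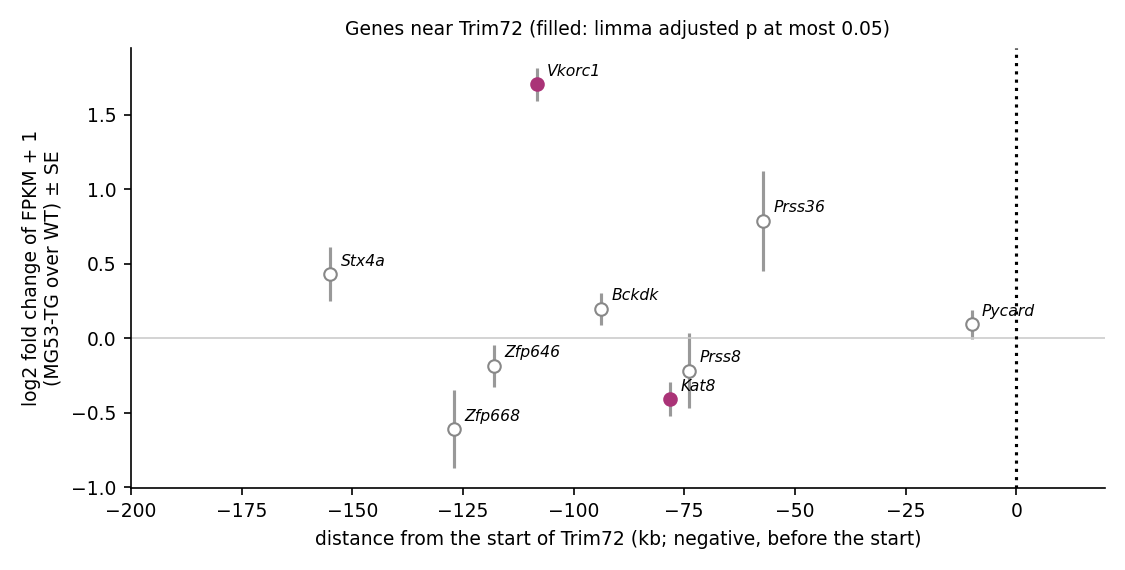
Log2 fold change of FPKM + 1, MG53-TG over WT, with its standard error (y axis), of 9 genes tested near Trim72 by their distance from its start in kb (x axis, negative before the start). Filled points passed the threshold of 0.05 (limma adjusted p). Vkorc1 stands at 1.70, and the 8 others lie between -0.61 and 0.79.

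Likeness of pattern was measured by scaling each member and 9844 other protein-coding genes to 0 in its lowest and 1 in its highest sample and taking the mean absolute difference over the 8 samples. The genes most like Trim72 included Btnl1 (0.0206), Cdhr5 (0.0216), Dgat2 (0.0217) and Ifit3 (0.0350). Like Trim72, each of these 4 was lowest in MG53-TG sample 1 and highest in MG53-TG sample 4 within its group, which the choice by likeness favours. For this measure Trim72 stood at 0 in the WT samples, where it had no entry. Btnl1, a butyrophilin-like gene of the intestinal epithelium, was between 7.62 and 9.74 FPKM in the WT while MG53-TG samples 1 to 4 had 43.2, 58.2, 74.8 and 84.9 FPKM. The 3 genes most like Insr by its end rows were Ankrd46 (0.0245), Atrn (0.0352) and Bcar3 (0.0355). Those most like Prkaa1 were Zfp180 (0.0405), Aldh1l2 (0.0414) and Oip5 (0.0447), and those most like Ptk2 were Atpaf2 (0.0896), Fbxw2 (0.0956) and Rprd2 (0.105). The likeness is a description of these 8 samples.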

How the data were processed

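Total RNA of 4 WT and 4 MG53-TG organoid samples was sequenced. Per the submitters' processing notes, Cutadapt 1.9.1, HISAT2 2.0.1, HTSeq 0.6.1, DESeq2 and the build mm10 (GRCm38) were used. The deposited FPKM values, computed by the authors, are given for transcript events in each sample, and the tool that made the events is not given in the sources used here. Whole reads could not be recovered from these estimates, whose smallest value is 1e-06, so no count test was run. Exact duplicate rows (16032) were dropped. Of 49773 start and end events, 85.3% matched an exon boundary of the gene named in their row in the GENCODE annotation of GRCm38. A gene took the sum of its start or of its end rows, whichever had the higher mean. An absent entry was left as missing if the median of the group's other samples reached 0.5 FPKM, and was set to 0 if not. For the 10707 genes whose mean reached 0.5 FPKM, log2(FPKM + 1) was fitted in R 4.3.3 by limma 3.58.1 (lmFit, then eBayes with a trend), p-values were adjusted by Benjamini-Hochberg, and 0.05 was the threshold. The pseudocount makes the fold changes of low genes too small. Single genes were also compared by an exact permutation test over 70 relabellings. Exons entered their fit if all 8 samples listed both events with 2 FPKM or more in total and inclusion averaged between 5% and 95%. Both fits were tested on simulated data with known changes in 200 of 10362 genes and in 100 of 1208 exons. In the real data 45.0% of the genes passed, so the rates of the simulation need not hold there. The gene fit recovered 68% of changes of size 1 and 94% of size 2 on the log2 scale, with 12 unchanged genes called. The exon fit recovered 38% of changes of size 0.3 and 76% of size 0.6 on the arcsine scale, with 1 unchanged exon called. Likeness and the genes near Trim72 were computed with Python 3.11.15, numpy 2.4.6, pandas 2.3.3 and scipy 1.17.1. The genes named were the 6 members, fixed paralogs and subunits, the 3 largest increases and 3 largest decreases past the threshold in each pathway list, the genes within 200 kb of Trim72, and the genes most like each member. The members, the lists and the rules were chosen with earlier results of these data known. The values of some genes named by these rules are not reported here.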

Additional observations from a re-analysis of the deposited data

Results flagged for a closer look

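In 75 groups of 4 samples, 5 had a sample far from the other 3 by Dixon's test, where chance gives about 1 in 20. Itgb5 was at 1.93 FPKM in WT sample 2 and between 2.44 and 2.52 FPKM in the other WT samples. Myh9 was at 78.9 FPKM in WT sample 2 and between 49.7 and 51.6 FPKM in the others. Prkab2 was at 0.790 FPKM in WT sample 4 and between 1.47 and 1.597 FPKM in the others. In MG53-TG sample 2, Tbc1d1 was at 9.41 FPKM, against 4.03 to 4.74 FPKM in the other MG53-TG samples, and Ube2h was at 16.0 FPKM, against 8.91 to 10.05 FPKM. Both of these genes were within the WT range in that sample, which also had the lowest inclusion of Insr exon 11 among the MG53-TG samples and no start row of Trim72.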

How the results depend on the processing

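The alternatives were a pseudocount of 0.1, a filter at 2 FPKM or none, 2 rescalings, sample weights, the replicate block, start or end rows alone, absent entries as 0, assignment by exon boundaries, and leaving out each sample. The count of genes past the threshold was 4816, and between 3633 and 5124 under the alternatives (3858 to 5124 without 1 sample). Median-of-ratios scaling moved the median log2 fold change from -0.17 to -0.01 and gave 2220 higher and 2182 lower genes, against 1682 and 3134 as deposited. Quantile normalization gave 2053 higher and 2522 lower. Insr kept its increase (0.53 to 0.66 without 1 sample) except with start rows alone (-1.06). Ptk2 was at 0.048 with median-of-ratios scaling, 0.054 with quantile normalization and between -0.26 and 0.057 without 1 sample, turning without WT sample 4. Prkaa1 was between -0.47 and -0.23 without 1 sample, past the threshold without MG53-TG sample 2. The mean of Trim72 in the MG53-TG was 19.2 FPKM with start rows alone, over the 3 samples with one, and between 25.3 and 32.0 FPKM without 1 sample. The difference of Insr exon 11 was between 57.3 and 70.8 percentage points without 1 sample.

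Of the other genes, Prkaa2 turned to 0.13 and 0.11, and Prkag1 to 0.17 and 0.12, under median-of-ratios scaling and quantile normalization. Without 1 sample, Prkag1 was between -0.17 and 0.069 and Prss8 between -0.41 and 2.27e-04. Itga3 was at -0.090 with start rows alone and Stx4a at -0.024 with end rows alone. Of the exons tested, 11 passed, and 2 to 16 did without 1 sample, with 2 without WT sample 2, 5 without MG53-TG sample 3 and 6 without each of WT samples 1, 3 and 4 and MG53-TG sample 4. With end rows alone, 9 insulin and IGF signalling genes and 3 AMPK genes passed, against 16 and 7.

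The deviations of equally numbered samples were hardly correlated (r of 0.087, -0.011, 0.096 and -0.040). Such weak correlations cannot tell whether the numbers pair the samples. The study's legend names a paired t test for marker genes of the crypt organoid transcriptome. With the replicate block, 4390 genes passed, the log2 fold changes of Insr, Ptk2 and Prkaa1 kept their direction and side of the threshold, and 0 exons passed (limma), with 122 at an unadjusted p under 0.05, against 137 without the block. The adjusted p of Insr exon 11 was then 0.262 (limma).

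What depth limits could not be judged, since no counts were used.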
